A study of Mus musculus with 9 samples.

Results

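The pyruvate dehydrogenase genes were examined in BaF3 cells that carried 1 of 3 fusion tyrosine kinases. The set held 10 of the 19938 genes measured. They were the phosphatase genes Pdp1 and Pdp2, the kinase genes Pdk1, Pdk2, Pdk3 and Pdk4, and the genes Pdha1, Pdhb, Dlat and Dld for the catalytic subunits. Members were taken by symbol, and each was read by a single probe set annotated to that gene alone. The set was selected on the measured Pdp1 values, because Pdp1 was lower with both RET fusions than with BCR-ABL in these same arrays. Those 2 contrasts are therefore described below for the 10 members without a test.

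BaF3 is a mouse blood cell line that depends on interleukin-3. Per the labels, the cells were infected with a retrovirus for BCR-RET, FGFR1OP-RET or BCR-ABL, the last named in the design text as the P210 form, and were sorted by EGFP fluorescence. Each fusion had 3 Affymetrix MouseGene 1.0 ST arrays, so there were 9 arrays in all. The infection and the EGFP sort were common to all 3 groups, and cells without a fusion were not analysed here. The labels do not say whether the 3 arrays of a fusion came from separate infections or cultures, whether the sorted cells were pools or clones, or whether interleukin-3 was present at harvest. P-values therefore cover array-to-array spread only, and that spread may be technical.

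The pyruvate dehydrogenase complex sits in the mitochondrial matrix and turns pyruvate into acetyl-CoA, the step that joins glycolysis to the citric acid cycle. Pyruvate dehydrogenase kinases switch the complex off by phosphorylating serines of its alpha subunit, which Pdha1 encodes, and pyruvate dehydrogenase phosphatases switch it on again by removing the phosphates. Growing blood cells often send much of their pyruvate to lactate instead, and this kinase and phosphatase pair is one point at which that choice is set. The arrays read messenger RNA alone, so neither phosphorylation nor enzyme activity was measured.

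Values are log2 expression after RMA, and ± is the SD of 3 arrays. A difference is the mean of the first named group minus that of the second, on the log2 scale, and SE is its standard error from limma fitted over all genes and all 9 arrays. To pass, a gene needed an adjusted p below 0.05 (Benjamini-Hochberg, over all genes). Levels of different probe sets are not on a common scale, so each gene is compared only with itself. Array medians lay between 8.01 and 8.04, and the correlation of 2 arrays over all probe sets was 0.993 to 0.996 for arrays sharing a fusion and 0.989 to 0.996 for the others. The blood cell markers Ptprc and Il3ra, the interleukin-3 receptor alpha chain, averaged 11.48 and 10.39 with BCR-RET, 11.84 and 10.52 with FGFR1OP-RET and 11.68 and 10.33 with BCR-ABL. Of 6 blood cell markers, 2 passed with each RET fusion against BCR-ABL, where 0.587% (BCR-RET) and 1.02% (FGFR1OP-RET) of all genes did. They were Csf2rb and Csf2rb2, which encode beta chains of the interleukin-3 receptor, and both rose. Csf2rb rose by 0.72 with BCR-RET and 0.69 with FGFR1OP-RET (limma adjusted p = 0.00819 and 0.00649), and Csf2rb2 by 0.90 and 0.56 (limma adjusted p = 0.00279 and 0.0236). In BCR-RET against BCR-ABL the differences of Ptprc, Spn, Laptm5 and Il3ra were -0.20, -0.25, -0.17 and 0.06, and none of them passed. Between the RET fusions 1 of the 6, Ptprc, passed, with a difference of -0.36 (limma adjusted p = 0.0182), against 1.33% of all genes. The part of these receptor genes in the differences below was not tested. The mean of 7 B lineage markers lay between 7.49 and 7.52 with BCR-RET, 7.34 and 7.48 with FGFR1OP-RET and 7.39 and 7.47 with BCR-ABL, and none of them passed in any comparison. Detection calls were not used here, so no gene was called present or absent.

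Pdp1 was the one member with a large difference between fusions. It encodes a catalytic subunit of the phosphatase, the isoform known to be stimulated by calcium. Pdp1 (probe set 10511580) read 10.99, 11.12 and 11.13 with BCR-RET, 11.25, 11.55 and 11.62 with FGFR1OP-RET and 11.95, 12.07 and 12.17 with BCR-ABL. The 3 groups did not overlap, with BCR-RET lowest and BCR-ABL highest. The means were 11.08 ± 0.08, 11.47 ± 0.20 and 12.07 ± 0.11 in the same order of groups.

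Set against BCR-ABL, the Pdp1 level was lower by 0.99 with BCR-RET (SE 0.10), so that BCR-ABL cells had 1.98 times the BCR-RET level. With FGFR1OP-RET it was lower by 0.59 (SE 0.10), and BCR-ABL cells had 1.51 times that level. Both contrasts share the BCR-ABL arrays, and they are the values for which the gene was chosen. In bulk RNA, fewer expressing cells and less Pdp1 RNA per cell cannot be told apart.

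Between the RET fusions, a contrast that the choice of the set did not use although it shares their arrays, Pdp1 was lower in BCR-RET cells by 0.39 (SE 0.10, 95% interval -0.61 to -0.17). This difference did not pass over all genes (limma adjusted p = 0.114), although all 3 BCR-RET arrays lay below all 3 FGFR1OP-RET arrays. The call changed in 2 of the alternatives. Without FGFR1OP-RET replicate 1 the difference was -0.51 and passed (limma adjusted p = 0.0292). With all 9 arrays and the replicate number as a block it was -0.39 and passed (limma adjusted p = 0.00666), although the numbers were not borne out as pairs for these groups. Over all alternatives the adjusted p ran from 0.00666 to 0.265.

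The array numbered 1 was the lowest for Pdp1 in all 3 groups, by 0.14 in BCR-RET, 0.34 in FGFR1OP-RET and 0.17 in BCR-ABL cells against the mean of the other two arrays. Taken between arrays of the same number, the Pdp1 difference of BCR-RET from BCR-ABL was -0.96, -0.96 and -1.04 for numbers 1, 2 and 3. FGFR1OP-RET arrays gave -0.70, -0.53 and -0.55 against BCR-ABL, and BCR-RET arrays against FGFR1OP-RET gave -0.26, -0.43 and -0.49. Since the groups do not overlap, the sign of these differences was fixed, and their sizes alone are of use.

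**Figure D1:**
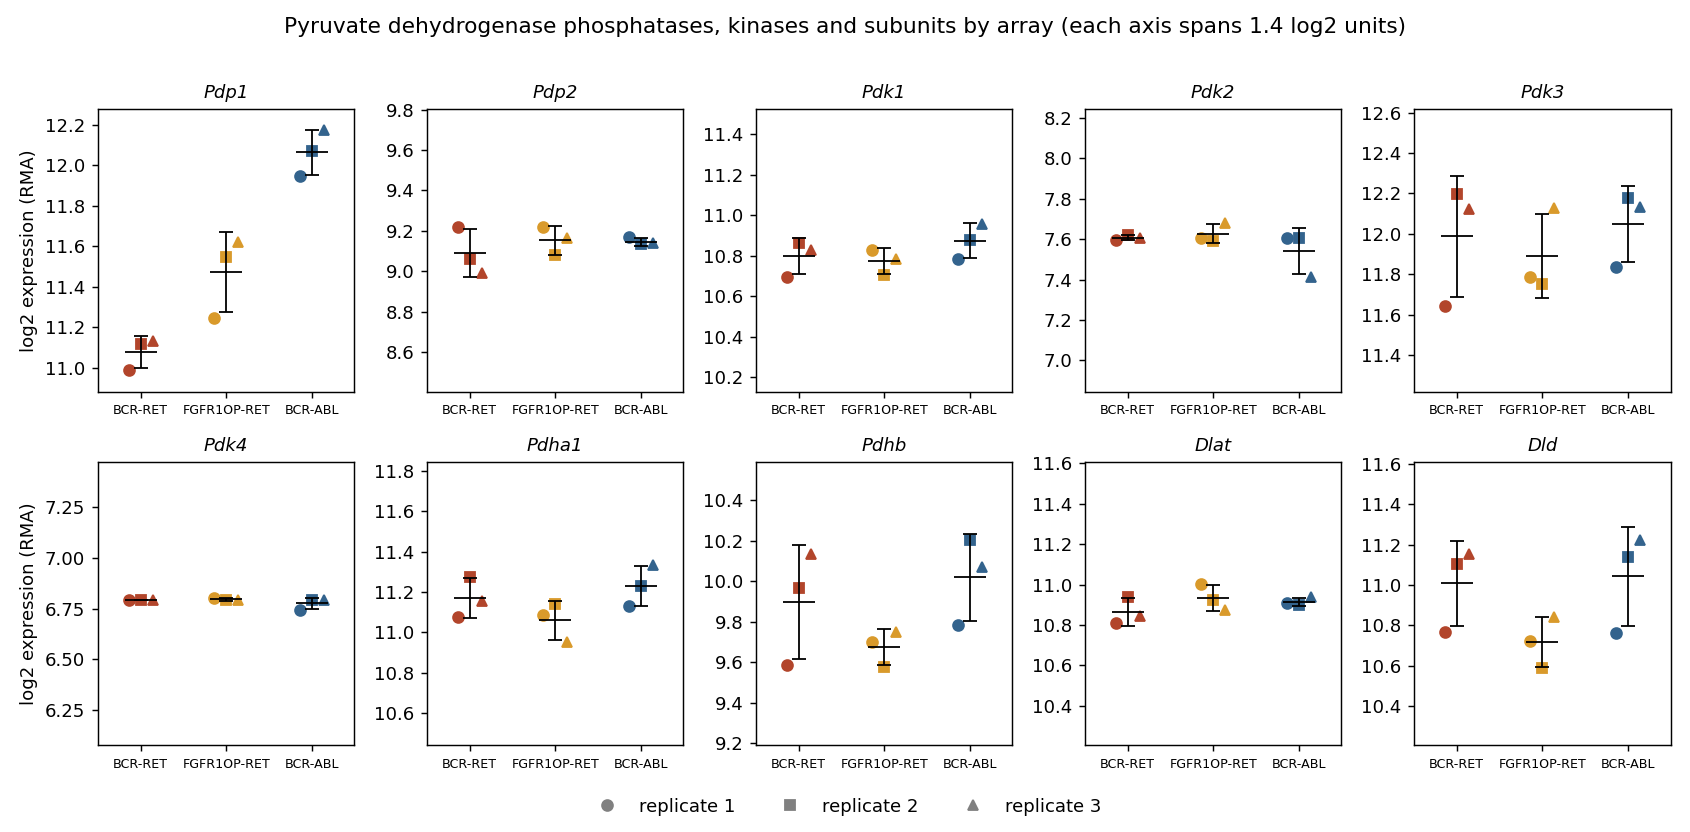
Log2 expression of the 10 genes on each of the 9 arrays, with 1 panel per gene, groups along the horizontal axis, symbols for the replicate number, and the group mean with its SD in black. Every vertical axis spans 1.4 log2 units, and the Pdp1 panel is the one in which the 3 groups are fully apart, from 10.99 to 11.13 in BCR-RET, 11.25 to 11.62 in FGFR1OP-RET and 11.95 to 12.17 in BCR-ABL cells.

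Pdp2, which encodes the other catalytic phosphatase isoform, showed no such separation. Pdp2 (probe set 10574488) read 9.22, 9.06 and 8.99 with BCR-RET, 9.22, 9.08 and 9.16 with FGFR1OP-RET and 9.17, 9.13 and 9.14 with BCR-ABL. The BCR-ABL values lay inside the range of both RET fusions. Against BCR-ABL the Pdp2 difference was -0.06 with BCR-RET and 0.01 with FGFR1OP-RET (SE 0.07 each). Between the RET fusions it was -0.06 (95% interval -0.21 to 0.08, limma adjusted p = 0.693). Pdpr, which encodes the regulatory subunit of the phosphatase, averaged 9.86 ± 0.04 in BCR-RET, 9.84 ± 0.13 in FGFR1OP-RET and 9.98 ± 0.09 in BCR-ABL cells and passed in no comparison.

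Among the kinase genes none had groups that were apart. Pdk1, known as a gene that low oxygen induces, read 10.70, 10.87 and 10.83 with BCR-RET, 10.83, 10.70 and 10.78 with FGFR1OP-RET and 10.78, 10.88 and 10.96 with BCR-ABL. All 3 groups overlapped. The Pdk1 difference was -0.08 for BCR-RET and -0.10 for FGFR1OP-RET against BCR-ABL (SE 0.07 each), and 0.02 between the RET fusions (95% interval -0.12 to 0.17, limma adjusted p = 0.900).

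Pdk3, a kinase isoform with a strong affinity for the lipoyl domain of the complex, varied more between arrays of a group than between groups. It read 11.64, 12.20 and 12.13 with BCR-RET, 11.79, 11.75 and 12.13 with FGFR1OP-RET and 11.83, 12.18 and 12.13 with BCR-ABL. The low values were array 1 of BCR-RET and of BCR-ABL and arrays 1 and 2 of FGFR1OP-RET. The Pdk3 difference was -0.06 for BCR-RET and -0.16 for FGFR1OP-RET against BCR-ABL (SE 0.16 each), and 0.10 between the RET fusions (95% interval -0.26 to 0.46, limma adjusted p = 0.817).

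Pdk2, the isoform most widely found across tissues, read 7.60, 7.62 and 7.61 with BCR-RET, 7.61, 7.59 and 7.68 with FGFR1OP-RET and 7.61, 7.61 and 7.41 with BCR-ABL. One BCR-ABL array, number 3, lay below the other 8. Its differences were 0.07 and 0.09 for BCR-RET and FGFR1OP-RET against BCR-ABL (SE 0.06 each) and -0.02 between the RET fusions (limma adjusted p = 0.920). An identical Pdk2 value stood on 4 of the 9 arrays.

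Pdk4, the isoform that fasting and fatty acids induce in muscle and liver, showed almost no variation. Its value was 6.79 on all 3 BCR-RET arrays. In FGFR1OP-RET cells it was 6.80, 6.79 and 6.79, against 6.75, 6.79 and 6.79 in BCR-ABL cells. The 9 arrays held only 3 distinct Pdk4 values, and 1 of them stood on 7 arrays, so its SD is 0 in BCR-RET cells. Over all genes 30.1% had a value that stood on at least 3 arrays. The Pdk4 difference between the RET fusions was 0.00 (95% interval -0.10 to 0.09, limma adjusted p = 0.975).

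The subunit genes differed in how steady they were. Dlat, which encodes the acetyltransferase core that carries the lipoyl arms, read 10.81, 10.94 and 10.84 with BCR-RET, 11.00, 10.92 and 10.87 with FGFR1OP-RET and 10.91, 10.90 and 10.94 with BCR-ABL. The groups overlapped, and the Dlat differences were -0.05 and 0.02 for BCR-RET and FGFR1OP-RET against BCR-ABL (SE 0.05 each). Between the RET fusions the Dlat difference was -0.07 (95% interval -0.19 to 0.05, limma adjusted p = 0.591).

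Pdha1, the alpha subunit that the kinases phosphorylate, read 11.08, 11.27 and 11.16 with BCR-RET, 11.09, 11.14 and 10.95 with FGFR1OP-RET and 11.13, 11.23 and 11.33 with BCR-ABL. FGFR1OP-RET held the lowest array and BCR-ABL the highest, with all groups overlapping. The Pdha1 difference from BCR-ABL was -0.06 for BCR-RET and -0.17 for FGFR1OP-RET (SE 0.08 each), and 0.11 between the RET fusions (95% interval -0.06 to 0.28, limma adjusted p = 0.541).

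Pdhb encodes the beta subunit that pairs with Pdha1. It read 9.59, 9.97 and 10.13 with BCR-RET, 9.70, 9.57 and 9.75 with FGFR1OP-RET and 9.78, 10.20 and 10.07 with BCR-ABL. All 3 FGFR1OP-RET arrays lay below all 3 BCR-ABL arrays, whereas BCR-RET overlapped both. The Pdhb difference from BCR-ABL was -0.12 for BCR-RET and -0.35 for FGFR1OP-RET (SE 0.14 each), and 0.22 between the RET fusions (95% interval -0.10 to 0.54, limma adjusted p = 0.502).

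Dld encodes the lipoamide dehydrogenase that this complex shares with the oxoglutarate and branched-chain complexes. It read 10.77, 11.10 and 11.15 with BCR-RET, 10.72, 10.59 and 10.84 with FGFR1OP-RET and 10.76, 11.14 and 11.22 with BCR-ABL. Arrays 2 and 3 of FGFR1OP-RET were lower than arrays 2 and 3 of both other groups, while the 3 arrays numbered 1 lay within 10.72 to 10.77. The Dld difference from BCR-ABL was -0.03 for BCR-RET and -0.32 for FGFR1OP-RET (SE 0.14 each), and 0.29 between the RET fusions (95% interval -0.02 to 0.59, limma adjusted p = 0.361).

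**Figure D2:**
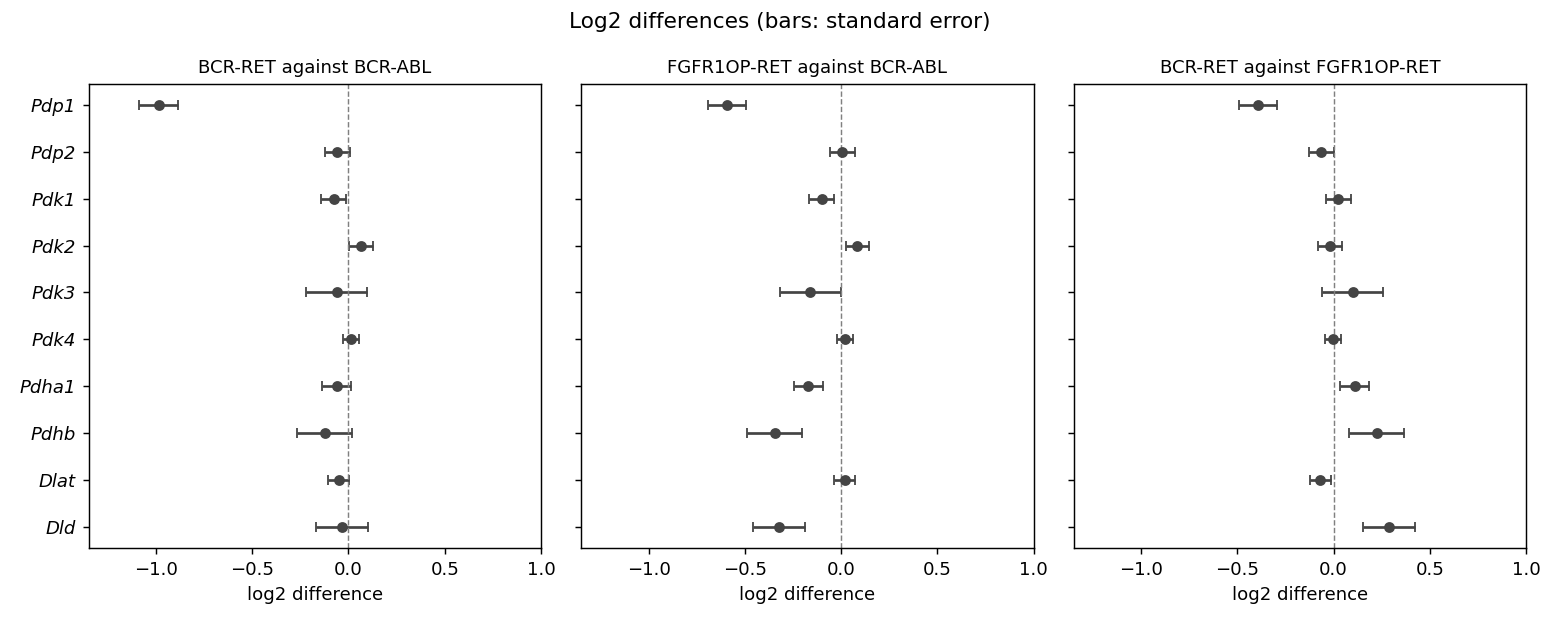
Log2 differences of the 10 genes (points) with their standard errors (bars) in the 3 comparisons, with a dashed line at 0. Pdp1 stands at -0.99, -0.59 and -0.39, while the other 9 genes lie between -0.12 and 0.07, between -0.35 and 0.09, and between -0.07 and 0.29.

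Counted together, 1 of 10 members, Pdp1, passed in BCR-RET against BCR-ABL, where 0.587% of all genes did, and 1 of 10, again Pdp1, in FGFR1OP-RET against BCR-ABL, where 1.02% did. The set was chosen on Pdp1 in these same contrasts. Both counts are therefore printed beside the shares of all genes as a description, and nothing is read from them. Over the alternatives the second count was 0 to 1. With the replicate number as a block over all 9 arrays, 362 genes passed in place of 117 in the first comparison. The numbers were borne out as pairs for BCR-RET and BCR-ABL but not for FGFR1OP-RET, whose arrays were in the same fit. Between the RET fusions 0 of 10 passed in limma, against 1.33% of all genes, and 1 of 10, Pdp1, had an unadjusted p under 0.05, against 14.9% of all genes.

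Groups were fully apart for Pdp1 in BCR-RET against BCR-ABL, for Pdp1 and Pdhb in FGFR1OP-RET against BCR-ABL, and for Pdp1 between the RET fusions. The corresponding shares of all genes were 16.6%, 12.1% and 15.3%. Pdp1 was chosen on the first 2 of these comparisons, so its separation there is only described. The median difference of the 10 genes was -0.06, -0.13 and 0.01 in the 3 comparisons, beside 0.03, 0.00 and 0.03 over all genes. Without Pdp1 the median of the members was -0.06, -0.10 and 0.02.

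The spread between arrays of a group differed among the members. The pooled SD was 0.24 for Pdk3, 0.21 for Pdhb, 0.20 for Dld and 0.14 for Pdp1, above the median of 0.09 over all genes, and 0.02 for Pdk4. For Pdk3, Pdhb and Dld the array numbered 1 was the lowest in both BCR-RET and BCR-ABL cells, by 0.32 to 0.52 below the mean of the other two. In FGFR1OP-RET cells it was not the lowest for any of them. Array 1 was the lowest for 8 of 10 members in BCR-RET, 1 in FGFR1OP-RET and 7 in BCR-ABL cells, against 31.4%, 38.9% and 36.2% of all genes. Their part in the differences above was not tested.

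Some marker genes of other blood lineages also differed between the fusions. By list mean, granulocyte and monocyte markers were highest with FGFR1OP-RET and erythroid markers with BCR-RET. All 3 lists were lowest with BCR-ABL, where Pdp1 was highest, and the erythroid order of groups was that of Pdp1 reversed. By gene, Csf1r, Adgre1 and Ltf had their highest mean with BCR-RET and Epor with FGFR1OP-RET. The lowest mean was with BCR-RET for Cd14, Mpeg1 and Cd68 and with FGFR1OP-RET for Tfrc. The mean log2 value of 6 granulocyte markers lay between 10.85 and 11.24 on the BCR-RET arrays, 11.15 and 11.57 on the FGFR1OP-RET arrays and 10.28 and 10.62 on the BCR-ABL arrays. For 6 monocyte and macrophage markers the ranges were 8.76 to 8.84, 9.07 to 9.48 and 8.65 to 8.67, and for 5 erythroid markers 9.28 to 9.41, 9.18 to 9.26 and 8.97 to 9.06, in the same order of groups. In BCR-RET against BCR-ABL 0 granulocyte, 0 monocyte and 2 erythroid markers (Gata1 and Klf1, higher) passed in limma, where 0.587% of all genes did. In FGFR1OP-RET against BCR-ABL 3 granulocyte markers (Mpo, Prtn3 and S100a9), 2 monocyte markers (Cd14 and Mpeg1) and 1 erythroid marker (Gata1) passed, all higher, against 1.02% of all genes. Between the RET fusions Prtn3, Cd14 and Mpeg1 passed, all lower with BCR-RET, against 1.33% of all genes. At an unadjusted p under 0.05 there were 3 granulocyte, 1 monocyte and 3 erythroid markers in BCR-RET against BCR-ABL, beside 11.4% of all genes. In the same order there were 6, 3 and 4 in FGFR1OP-RET against BCR-ABL (9.75% of all genes). Between the RET fusions there were 4, 3 and 2 (14.9% of all genes). The part of these lineage genes in the Pdp1 difference was not tested.

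The genes around the complex were taken as 6 lists. Of their 81 genes, 78 were measured, and in limma 0 passed in BCR-RET against BCR-ABL, 1 in FGFR1OP-RET against BCR-ABL and 0 between the RET fusions, where 0.587%, 1.02% and 1.33% of all genes did. These counts are near the background. At an unadjusted p under 0.05 there were 11, 10 and 13, or 14.1%, 12.8% and 16.7%, against 11.4%, 9.75% and 14.9% of all genes. The median difference of the 78 was 0.03, 0.00 and 0.02.

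The gene that passed was Pparg, a nuclear receptor of the PPAR family, from a list of 12 transcription factors and coactivators linked to Pdk gene control. Pparg read 8.06, 8.55 and 8.39 in FGFR1OP-RET cells, against 7.71, 7.81 and 7.68 in BCR-ABL cells. It rose by 0.60 (SE 0.11, limma adjusted p = 0.0332), and the groups were apart. The adjusted p lay between 0.00538 and 0.147 over the alternatives. Leaving out any of the 9 arrays except FGFR1OP-RET replicate 1 took it to 0.0551 or above. In BCR-RET cells Pparg lay between 7.96 and 8.05, and its differences of 0.27 from BCR-ABL and -0.33 from FGFR1OP-RET did not pass (limma adjusted p = 0.387 and 0.206).

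No other list had a member past the threshold. Among 8 measured partners of the complex, Mpc1, a subunit of the mitochondrial pyruvate carrier, had the highest difference between the RET fusions, 0.33 (SE 0.20). Lipt2, which acts in lipoic acid attachment, had -0.19 and -0.32 for BCR-RET and FGFR1OP-RET against BCR-ABL (SE 0.13 each). The list medians were 0.01 for each RET fusion against BCR-ABL and 0.04 between the RET fusions.

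Pdp1 belongs to the PPM family of metal-dependent phosphatases. A list of 16 other genes of this family was measured, apart from Pdp2 and from Ppm1k, which was placed with the sister complexes. Their medians were -0.03, -0.01 and 0.00 for BCR-RET and then FGFR1OP-RET against BCR-ABL and between the RET fusions. The largest differences were those of Phlpp1, a phosphatase that acts on Akt, at -0.35, and of Ppm1j at 0.32, both in BCR-RET against BCR-ABL (limma adjusted p = 0.248 and 0.188). In FGFR1OP-RET against BCR-ABL, Ppm1d, a phosphatase induced by p53, had -0.25 and Ppm1a had -0.22, and between the RET fusions Ppm1d had 0.21 and Ppm1j 0.18.

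The 10 genes of the sister complexes, which act on oxoglutarate, branched-chain keto acids and glycine, had medians of 0.04, -0.04 and 0.03. Bckdhb, the beta subunit of the branched-chain dehydrogenase, averaged 10.92 ± 0.13 in BCR-RET and 10.65 ± 0.09 in FGFR1OP-RET cells, and this difference of 0.27 did not pass (limma adjusted p = 0.1995). It was -0.19 in FGFR1OP-RET against BCR-ABL. Gcsh, the lipoylated protein of glycine cleavage, had 0.09, -0.13 and 0.22 in the 3 comparisons, and Dlst, the oxoglutarate complex core, had -0.09 in BCR-RET against BCR-ABL.

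The 16 genes of pyruvate and lactate routes had medians of 0.06, 0.02 and 0.06. Me1, a cytosolic malic enzyme, had a difference of 0.34 in BCR-RET against BCR-ABL and 0.30 between the RET fusions. Ldhb, the lactate dehydrogenase subunit of oxidative tissues, had 0.32 in FGFR1OP-RET against BCR-ABL (limma adjusted p = 0.272). Pcx, which carboxylates pyruvate, had 0.16 in BCR-RET against BCR-ABL, and Gpt2, a mitochondrial alanine transaminase, had -0.19 in FGFR1OP-RET against BCR-ABL and 0.22 between the RET fusions.

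The 16 measured citric acid cycle genes, which take up the acetyl-CoA that the complex makes, had medians of 0.05, -0.07 and 0.12. The succinyl-CoA ligase gene Sucla2 had 0.20 in BCR-RET against BCR-ABL and 0.27 between the RET fusions, and the succinate dehydrogenase genes Sdhb and Sdhd had 0.25 and 0.27 in the same order of comparisons. In FGFR1OP-RET against BCR-ABL the ligase gene Suclg2 had -0.25 and the fumarase gene Fh1 -0.18. None of these differences passed, and their adjusted p in limma ran from 0.207 to 0.589. Fh1 also had 0.25 between the RET fusions (SE 0.05, limma adjusted p = 0.0573), with the groups apart, and did not pass. Of the 16 genes, 5 had an unadjusted limma p under 0.05 between the RET fusions, against 14.9% of all genes. There were 0 in BCR-RET against BCR-ABL (11.4% of all genes) and 2 in FGFR1OP-RET against BCR-ABL (9.75% of all genes).

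**Figure D3:**
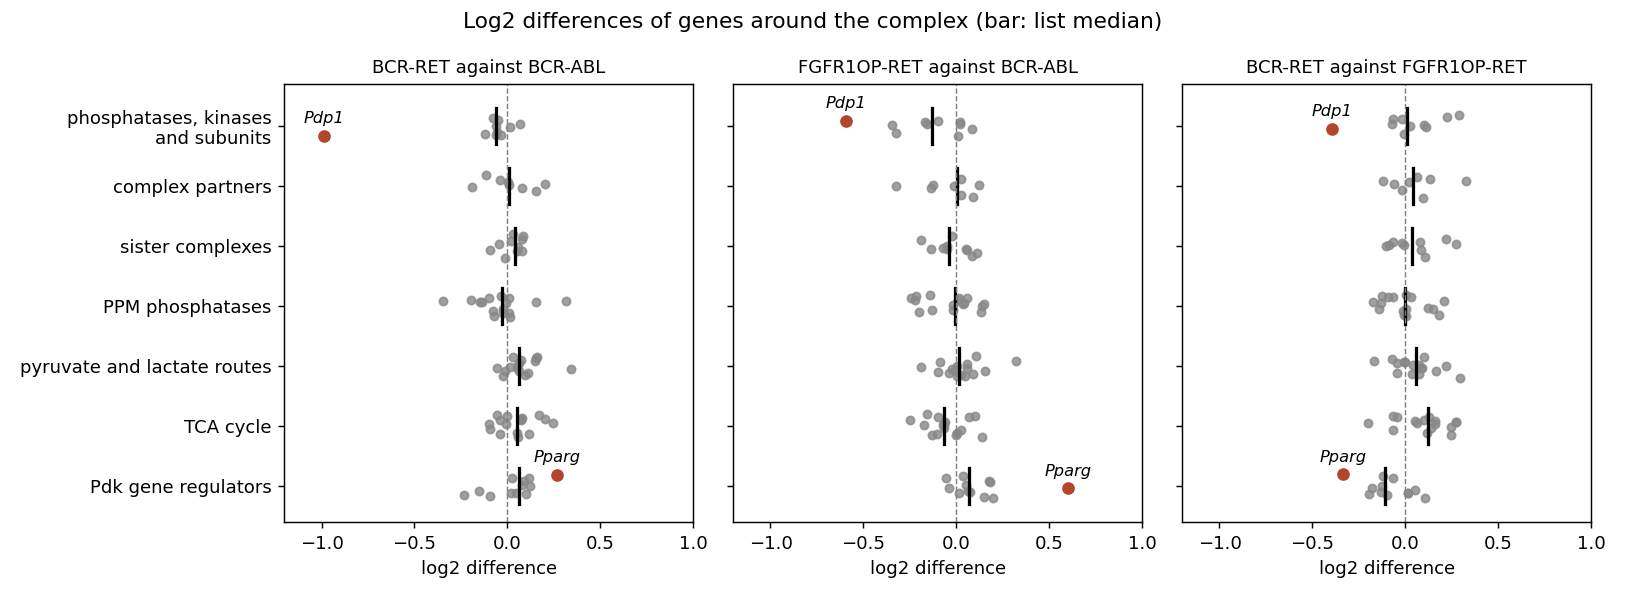
Log2 differences of the 10 members and of the genes of 6 surrounding lists in the 3 comparisons; each point is a gene, the black bar is the list median, and the vertical scatter has no meaning. Pdp1 is the leftmost point of the top list in each panel, at -0.99, -0.59 and -0.39, and Pparg stands at 0.60 in FGFR1OP-RET against BCR-ABL.

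Genes with values most like those of Pdp1 were sought by the root mean square distance of the 9 centred log2 values among 18709 named genes. The closest were Mamdc2 (distance 0.13), Ermp1 (0.14), Hbegf (0.16), Nxpe5 (0.17) and Cmah (0.19). The other members of the set lay farther off, at 0.39 to 0.46. Pdk4, which hardly varied, lay at 0.43, so such a distance is that of a flat gene and nothing is read from it. Mamdc2 averaged 8.45 ± 0.06 in BCR-RET, 8.72 ± 0.21 in FGFR1OP-RET and 9.48 ± 0.30 in BCR-ABL cells. Ermp1, which encodes a peptidase of the endoplasmic reticulum, averaged 12.54 ± 0.10, 12.76 ± 0.03 and 13.35 ± 0.06 in the same order.

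Hbegf, a growth factor gene of the EGF family, averaged 9.36 ± 0.11 in BCR-RET, 9.50 ± 0.10 in FGFR1OP-RET and 10.16 ± 0.06 in BCR-ABL cells. Nxpe5 averaged 8.23 ± 0.10, 8.76 ± 0.21 and 9.01 ± 0.13, and Cmah, a gene of sialic acid metabolism, 7.88 ± 0.15, 8.31 ± 0.29 and 8.56 ± 0.26, in the same order. BCR-RET had the lowest mean and BCR-ABL the highest for each of the 5, as for Pdp1. For Nxpe5 and Cmah the FGFR1OP-RET and BCR-ABL arrays overlapped, and for Hbegf the BCR-RET and FGFR1OP-RET arrays did, unlike those of Pdp1. The 5 genes were picked for this likeness, so no test is given for them.

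**Figure D4:**
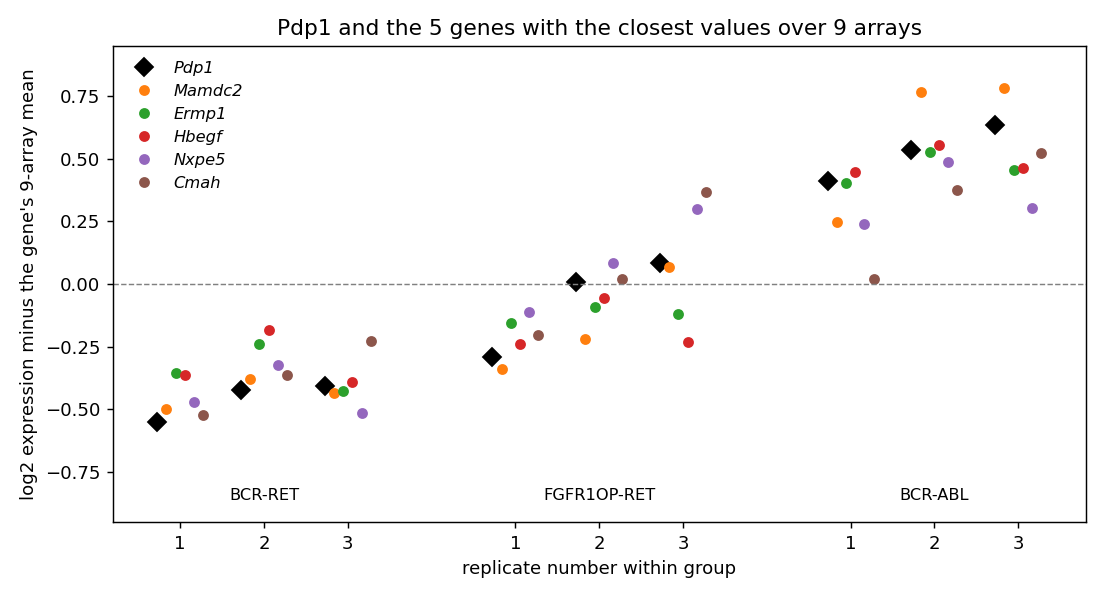
Log2 expression of Pdp1 (black diamonds) and the 5 genes with the smallest distance to it (circles), each centred on its own 9-array mean, for the 3 numbered arrays of each group. The genes all lie below 0 on the BCR-RET arrays and above 0 on the BCR-ABL arrays, and the mean of each gene in FGFR1OP-RET cells lies between those of the other groups.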

How the data were processed

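Per the submitters' processing notes, the authors deposited log2 values from RMA at gene level (with quantile normalization across arrays) in Affymetrix Expression Console. No source used here names its version or a genome build, and coordinates are left out. RMA makes array distributions alike, so a shift of most transcripts would not be seen. Of 35557 probe sets, 21789 had 1 gene symbol; the highest 9-array mean was kept per gene, giving 19938 genes. Group means were fitted with limma 3.58.1 (lmFit, eBayes) in R 4.3.3, all 9 arrays sharing 1 spread, and the test was tested on simulated data. Precision is limited by 3 arrays per group.

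Members and lists were chosen with earlier results of these data known. Named were all members, list genes past the threshold or, in lists without one, the 2 with the largest difference per comparison, and the 5 genes nearest Pdp1. Same-numbered arrays of BCR-RET and BCR-ABL deviated together (r = 0.617, 0.155 and 0.367 across genes), which meets the limit of 0.1 for pairs; in the other comparisons number 2 did not (r = -0.128 and -0.152). With the block, fitted over all 9 arrays, the Pdp1 difference of BCR-RET from BCR-ABL was -0.99 too. Alternatives varied the block, arrays fitted, prior, dim-gene filter, probe sets, scaling and each array left out.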

Additional observations from a re-analysis of the deposited data

How the results depend on the processing

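The Pdp1 log2 difference stayed within 1 SD of its value under all alternatives in BCR-RET against BCR-ABL and FGFR1OP-RET against BCR-ABL, from -1.04 to -0.93 and from -0.67 to -0.48. With the replicate block, Pdp1 between the RET fusions kept its difference of -0.39 and passed (limma adjusted p = 0.00666), making 1 member, with 3 list genes (Bckdhb, Fh1 and Sdhd); numbers do not pair these groups. The block also gave 2 list genes (Pparg and Lipt2) in FGFR1OP-RET against BCR-ABL and 362, 576 and 1135 genes in all, beside 117 and 203 for BCR-RET and then FGFR1OP-RET against BCR-ABL and 265 between the RET fusions. Fitting only the arrays of the groups compared gave 56, 94 and 34 genes. Keeping probe sets without 1 symbol gave 75, 117 and 99. Under both, 0 members and 0 list genes passed in FGFR1OP-RET against BCR-ABL. Leaving out 1 array in turn gave 28 to 114, 70 to 185 and 86 to 194 genes. In FGFR1OP-RET against BCR-ABL it gave 0 to 1 members and 0 to 1 list genes. Between the RET fusions it gave 0 to 1 members and 0 to 1 list genes, with Pdp1 from -0.51 to -0.32. The causes were not tested. The differences of the other 9 members gave 456 alternative values in 27 results. All kept their side of the threshold, or lay within 1 SD where no test was made. Pdk4 has no value with genes below a mean of 7 left out.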
